A study of Mus musculus with 18 samples.

Results

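The nuclear lamina is a protein mesh under the inner nuclear membrane, and the long genomic regions that contact it, called lamina-associated domains, are mostly gene-poor and repressed. Lamin B is a permanent component of that mesh, so its chromatin immunoprecipitation marks sequence held at the nuclear edge. H3K9me2, the dimethylated form of lysine 9 of histone H3, is a mark of repressed chromatin that is enriched along the lamina. During differentiation some regions leave the lamina and others join it. The stretches described here are those that lay in a Lamin B domain in mouse embryonic stem cells (ESC) and outside every Lamin B domain in cardiomyocytes (CM) made from them.

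On a 1 kb grid of chromosomes 1 to 19, 310 unbroken stretches of at least 10 kb were in the ESC and not in the CM Lamin B list. They came from 2542 stretches of that length over all 4 Lamin B states (in ESC only, in both, in CM only, in neither). They summed to 28.8 Mb, 2.84% of the 1013 Mb of autosomal ESC Lamin B sequence. Without the length limit, 2.93% of the 1 kb bins of that sequence lay outside CM domains. These amounts follow from the rule, which used both Lamin B lists, and are given as a description. "Released" is used below for this difference between lists only, and "kept" for Lamin B sequence of both cell types. Domain positions are in the mm9 build.

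The series holds 18 libraries. The CM lists stand for wild-type cardiomyocytes grown from ESC in embryoid bodies and collected on day 10, with 2 libraries per antibody. In the labels 6 libraries name the list of ESC Lamin B domains, 2 from wild-type ESC in 2i medium, 2 from a CMV-creERT; Hdac3f/f ESC line without tamoxifen, and 2 from that line after 1 µg/ml tamoxifen for 24 h, labelled Hdac3-/-. For H3K9me2 in ESC there are 4 such libraries, 2 from wild-type cells and 2 from the Hdac3f/f line without tamoxifen. Hdac3 encodes a histone deacetylase, and creERT is a Cre recombinase that tamoxifen activates. The sources used here do not say which of them went into the ESC lists, which may therefore mix genotypes. The cell types cannot be checked against marker genes in lists of domains, and no sources used here name a sort for cardiomyocytes.

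Each list is 1 set of domains without a value per library. Replicate spread and depth are therefore unknown, and no difference between cell types or between kinds of stretch was tested. Domain edges lie on grids of 9 kb (ESC Lamin B), 11 kb (CM Lamin B), 10 kb (ESC H3K9me2) and 20 kb (CM H3K9me2), and the shortest CM H3K9me2 domain is 40 kb. A shift of a Lamin B edge by 1 or 2 grid steps can make a stretch near the length limit. There were 9 stretches of 10 kb and 21 of 11 kb just inside it, and 14 of 9 kb and 16 of 8 kb just outside. Their median H3K9me2 coverage in ESC and CM was 75% and 100% at 8 kb, 72.2% and 66.7% at 9 kb, and 90% and 90% at 10 kb. At 11 kb it was 18.2% in ESC and 100% in CM, so the stretches nearest the limit did not share 1 pattern.

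Released stretches were short. The median was 54.5 kb, with quartiles of 19 and 126 kb, and the longest was 1161 kb. Stretches of at least 100 kb numbered 97 and held 71.8% of the sequence, while the 81 stretches under 20 kb held 3.84%. The place of each stretch relative to the CM Lamin B domains was then taken. A stretch was apart when no CM domain touched either end, beside when 1 end touched a CM domain, and between when both ends did. Because each stretch lies inside an ESC domain, these places also say how that domain differed in CM: lost whole, cut back from an edge, or opened in its interior.

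The commonest place was beside a CM domain, with 213 of 310 stretches (68.7%, Wilson 95% interval 63.3 to 73.6). A further 54 (17.4%, 13.6 to 22) lay between CM domains and 43 (13.9%, 10.5 to 18.2) lay apart. These intervals cover counting error only and treat stretches as independent, although some share an ESC domain. Stretches beside CM domains were the shortest, with a median of 31 kb, and held 12.7 Mb. Stretches apart had a median of 153 kb and held 8.33 Mb. Those between CM domains had a median of 66 kb and held 7.73 Mb.

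H3K9me2 was not used to choose the stretches. Released sequence was mostly marked in both cell types, but less fully than kept Lamin B sequence. H3K9me2 domains covered 66.4% of the released sequence in ESC and 60.8% in CM, compared with 94.3% and 97.4% of kept sequence. In sequence that joined the lamina in CM the coverage was 63.3% in ESC and 84.6% in CM. The difference, CM minus ESC, was -5.64 percentage points in released sequence, 3.08 points in kept sequence and 21.3 points in CM-only Lamin B sequence. Released coverage was lower in CM on 12 of the 19 chromosomes and higher on 6.

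Counted by stretch, with a stretch called marked when H3K9me2 covered at least 50% of it, 186 of 310 were marked in both cell types (60%, 54.5 to 65.3). The share over all 2542 stretches of the 4 Lamin B states was 52.8%. Stretches marked in neither cell type numbered 71 (22.9%, 18.6 to 27.9), against 31.9% over all stretches. Those marked in ESC only numbered 32 (10.3%, 7.41 to 14.2), against 3.54%, and those marked in CM only 21 (6.77%, 4.47 to 10.1), against 11.7%. Among kept stretches 2.92% were marked in ESC only, and among CM-only Lamin B stretches 3.28%. Other Lamin B stretches were longer, with medians of 469 kb for kept and 108 kb for CM-only ones, so these shares compare stretches of unlike length.

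**Figure D1:**
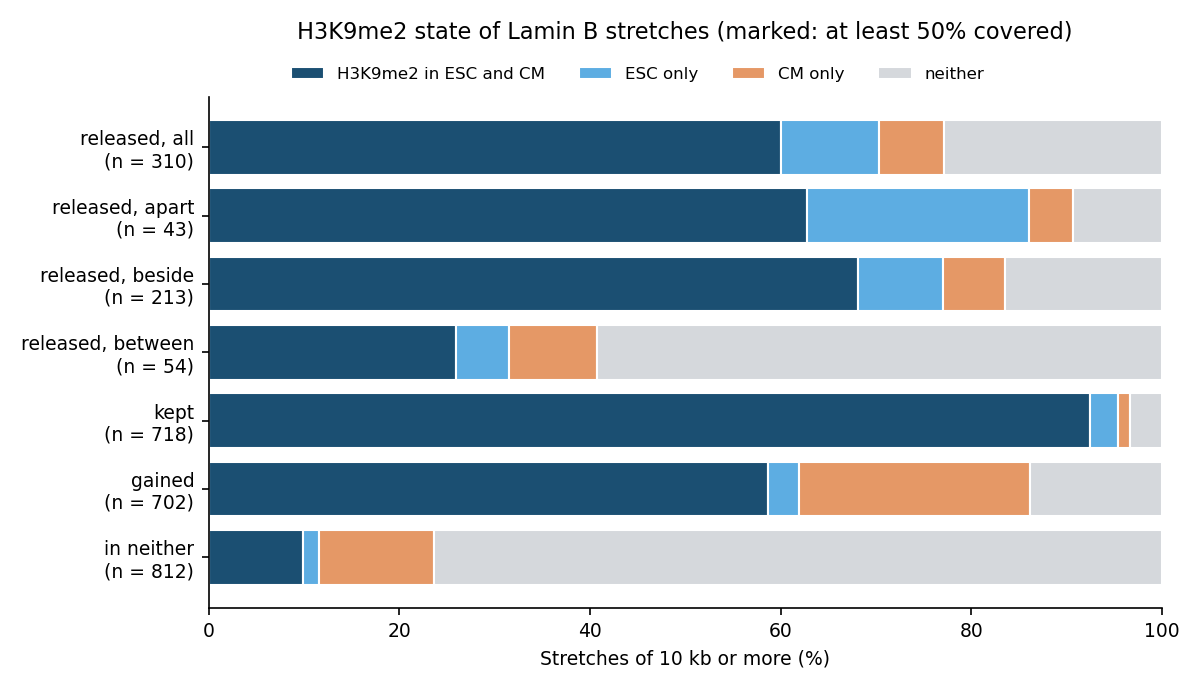
Share of stretches of 10 kb or more (x axis, percent) in each H3K9me2 state, for released stretches by their place relative to CM Lamin B domains and for kept, gained (CM-only) and neither-state stretches. Released stretches between CM domains are mostly marked in neither cell type (59.3%), whereas those beside are mostly marked in both (68.1%).

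Most released stretches had an equal H3K9me2 coverage in ESC and CM. Coverage was the same in 182 of 310 stretches, lower in CM in 72 and higher in 56. Equal coverage was found in 320 of 718 kept, 305 of 702 CM-only and 139 of 812 neither-state stretches. In the same order, it was lower in CM in 104, 63 and 237, and higher in 294, 334 and 436. A fall of at least 50 points was found in 30 stretches (9.68%), compared with 3.07% of all stretches. A rise of that size was found in 21 (6.77%), compared with 10.7%. Full coverage in both cell types was found in 131 stretches, and no H3K9me2 domain in either in 37. Most of the equal stretches were thus fully covered or not covered at all. In kept, CM-only and neither-state stretches, full coverage in both was found in 274, 237 and 36, and none in either in 16, 52 and 58. Stretches of these states differ in length, so the counts compare unlike stretches.

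The place of a stretch went with its H3K9me2 state. Sequence apart from CM domains was covered to 83.8% in ESC and 72.7% in CM, and sequence beside CM domains to 80.7% and 76.3%. Sequence between CM domains was covered to 24.2% in ESC and 22.4% in CM. Of the 15 chromosomes that held both kinds, ESC coverage was lower between than beside CM domains on 15 and CM coverage on 13. Chromosomes 3, 9, 12, 14, 15 and 17 each held only 1 stretch between CM domains, and chromosome 8 held 2 with 0.022 Mb. These counts thus rest in part on few and mostly short stretches. Place was defined from the Lamin B lists alone. For comparison, CM-only Lamin B sequence that bridged a pair of ESC domains was covered to 41.8% in ESC and 79.0% in CM.

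The 54 stretches between CM domains were openings inside ESC Lamin B domains, and most lacked H3K9me2 already in ESC. They lay in 33 ESC domains of 243 to 16191 kb, with a median of 954 kb, and 18 of the 54 were in domains under 1 Mb. H3K9me2 covered a median of 14.4% of a stretch in ESC and 11.4% in CM. In the 100 kb on either side the medians were 91.3% and 97.0%. Coverage was lower inside than in these flanks in 42 of the 54 stretches in ESC and in 32 in CM, and higher inside in 2 and 3. Marked in neither cell type were 32 stretches (59.3%, 46.0 to 71.3), which held 6.35 of the 7.73 Mb, and 14 were marked in both (25.9%, 16.1 to 38.9).

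The share marked in neither cell type was highest in openings of at least 200 kb, without a steady order over length. Among the 13 stretches of at least 200 kb, 12 were marked in neither cell type, with coverage of 19.9% of the sequence in ESC and 13.9% in CM. The 14 stretches of 20 to 50 kb had the opposite make-up, with 8 marked in both and coverage of 63.4% and 67.6%. At 50 to 100 kb, 8 of 11 were marked in neither, with coverage of 18.4% in ESC and 34.9% in CM. At 100 to 200 kb these were 3 of 7, with 35.1% and 37.0%. All 9 openings under 20 kb measured 11 kb, a single step of the CM grid, and 5 of them were marked in neither.

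The longest opening, chr7:96888001-97625000 (737 kb), was covered by H3K9me2 to 26.1% in ESC and 36.9% in CM. Its neighbour in the same ESC domain, chr7:96272001-96690000, had 9.09% in ESC and 23.4% in CM. At chr2:135146001-135828000 (682 kb) coverage was 20.5% in ESC and 0% in CM, while its flanks were covered to 96.0% and 91.0%. At chr10:107547001-108042000 (495 kb) it was 6.46% and 35.4%, inside flanks of 91.5% and 100%. The 462 kb at chr6:66825001-67287000 had 3.68% and 3.25%, against flanks of 77.5% and 50.0%. The opening at chr2:79189001-79618000 (429 kb) had 46.4% and 25.4% inside fully covered flanks. In each of these 5 regions Lamin B and H3K9me2 domains were thus both interrupted in CM, while in ESC the Lamin B domain ran across a break in H3K9me2.

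**Figure D2:**
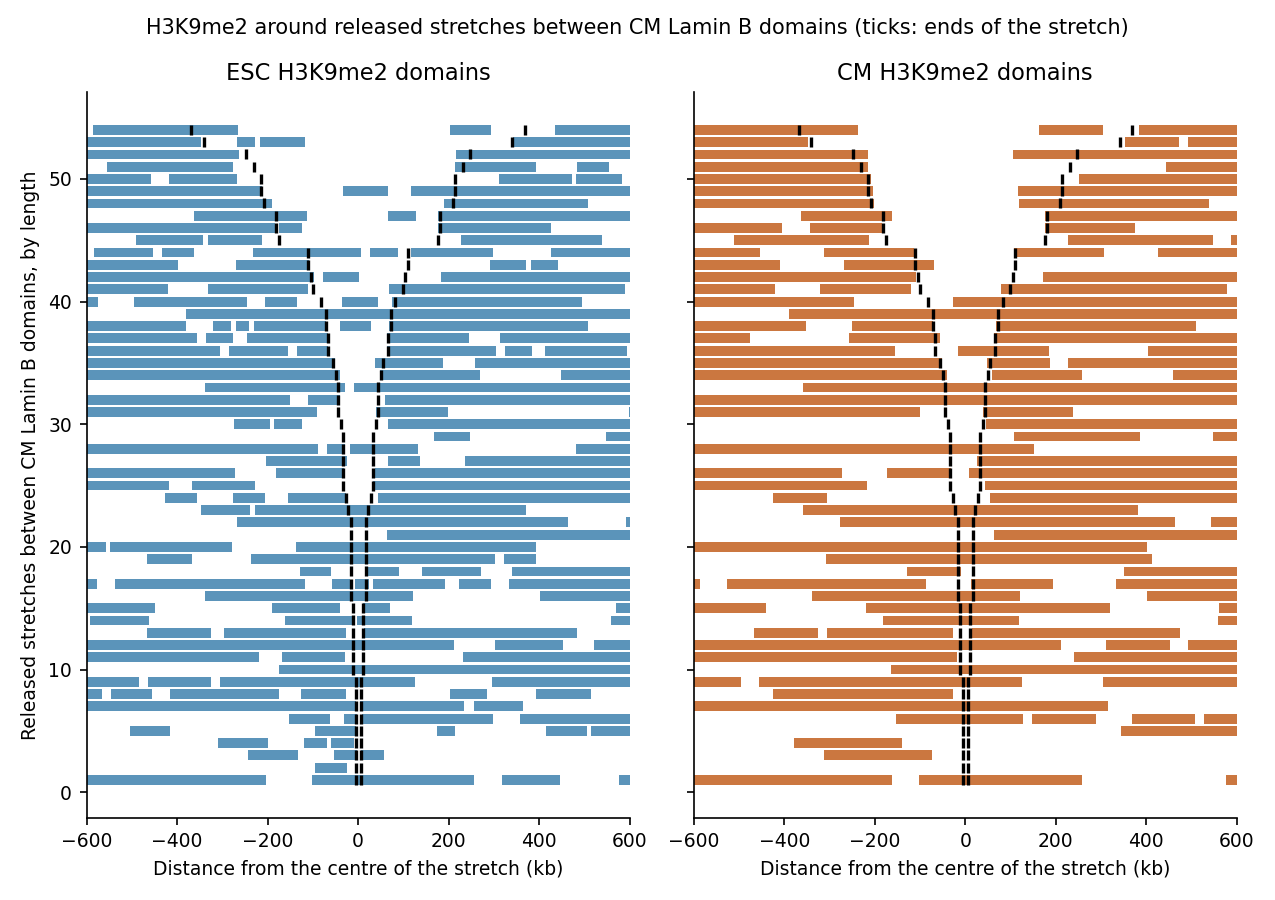
H3K9me2 domains (bars) in ESC (left) and CM (right) around the 54 released stretches between CM Lamin B domains, 1 row per stretch ordered by length, with distance from its centre in kb on the x axis. Black ticks mark the ends of the stretch, which lies in Lamin B in ESC and outside it in CM. In the upper rows H3K9me2 domains mostly stop near the ticks in both cell types, and in many of the lower rows they run across the stretch.

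CM Lamin B edges that bounded these openings lay near ESC H3K9me2 edges. Of the 108 edges, 56 (51.9%) had an ESC H3K9me2 edge within 20 kb, with a median distance of 19 kb. Over all 1652 autosomal CM Lamin B edges this share was 47.3% and the median 25 kb, so the edges of openings were close to the background. For CM H3K9me2 edges the share was 30.6% and the median 75 kb, against 34.9% and 59 kb over all CM Lamin B edges.

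Seen from the ESC side, a larger share of Lamin B sequence without H3K9me2 was released than of sequence with it. Of the 66.1 Mb of ESC Lamin B sequence outside ESC H3K9me2 domains, 15.1% lay outside CM Lamin B domains, compared with 2.08% of the 947 Mb inside them. The unmarked share was the higher on all 19 chromosomes, and without chromosome 11 the shares were 13.0% and 1.90%. Unbroken runs of at least 10 kb in the interior of ESC Lamin B domains were then called released when at least 50% of the run lay outside CM domains. Over 1037 such runs, marked or not, 7.04% were released, with 51 of the 497 unmarked runs (10.3%) and 22 of the 540 marked ones (4.07%). The marked runs were longer, and the order depended on length. At 10 to 50 kb, 8.71% of 241 unmarked and 16.7% of only 18 marked runs were released, and at 50 to 100 kb 10.1% and 7.84%. At 100 to 200 kb the shares were 12.7% and 3.90%, and at 200 kb or more 13.2% and 0.465%. The bin of 200 kb or more has no upper limit, and its 215 marked runs held 240.8 Mb against 23 Mb in its 68 unmarked runs. Lengths in that bin were thus unlike, and a longer run needs more sequence outside CM domains to be called released. The unmarked share was well above the marked one for runs of 100 to 200 kb, and not for those under 50 kb.

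Whether an unmarked run was covered by H3K9me2 in CM separated these runs further. Of the 376 that CM H3K9me2 covered over at least 50% of their length, 12 were released (3.19%). Of the 121 that it covered over less than 50%, 39 were (32.2%). The difference was present at each length, from 4.04% against 30.2% for runs of 10 to 50 kb to 0 of 37 against 9 of 31 (29.0%) for runs of at least 200 kb. Most of the 121 runs were thus not called released, with more than 50% of their length in CM Lamin B domains.

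The 43 stretches apart from CM domains were whole ESC Lamin B domains with no Lamin B domain in their place in CM. They were short domains with low scores. Of the 359 autosomal ESC domains under 500 kb, 42 were lost whole. Their median score was at the 13.5th percentile of the ESC list, where a rank of 50 is the middle, against 47.3 for domains without any released sequence. The score is the authors' value per domain, on a scale that no source used here explains. Score also went with length. Among domains of 50 to 100 kb, 10 lost ones had a median score of 3.62 (3.31 to 6.40). The 21 others, released in part or not at all, had a close median of 3.71 (3.22 to 5.25). Among domains of 100 to 200 kb, 20 lost ones had a median score of 4.04 (3.27 to 5.19) and the 96 others 4.36 (3.27 to 11.1). In domains of 200 to 500 kb the medians were 5.23 for 12 lost ones and 8.38 for 199 others. Only 1 stretch apart, on distal chromosome 12, came from a domain at or above the median score of the list.

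H3K9me2 mostly remained where these domains had been, and in a smaller group it was gone as well. Of the 39 stretches with some H3K9me2 in ESC, 25 were covered to at least 90% in CM, 5 to a lower degree, and 9 not at all. The 25 include chr11:90288001-90468000, where coverage was 40.0% in ESC and 95.6% in CM. The 9 without H3K9me2 in CM were 54 to 252 kb long (median 117 kb), against a median of 153 kb for the 25 covered to at least 90% in CM. Most of these stretches stood out from their surroundings in H3K9me2. In ESC the median coverage inside was 98.3% and in the 100 kb flanks 36.0%, and coverage was higher inside in 35 of 43. In CM it was 96.3% inside and 50.0% in the flanks, and higher inside in 25.

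The median distance to the nearest CM Lamin B domain was 152 kb, with 12 stretches within 100 kb and 5 more than 1 Mb away. The longest, chr12:120096001-121257000, lay 31 kb from a CM domain and had H3K9me2 coverage of 87.9% in ESC and 86.1% in CM. In ESC and in CM, H3K9me2 domains spanned all of the next 4 in length. These were chr1:71163001-71550000 (387 kb), chr9:116451001-116811000 (360 kb), chr11:65106001-65466000 (360 kb) and chr11:64368001-64692000 (324 kb). The chromosome 9 domain lay 3459 kb from any CM Lamin B domain, and in its flanks H3K9me2 covered 10.5% in ESC and 65.5% in CM.

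Other stretches apart also differed in H3K9me2 coverage between the cell types, to unlike degrees. At chr14:123012001-123255000 (243 kb) H3K9me2 coverage was 88.5% in ESC and 0% in CM. At chr7:116424001-116577000 (153 kb) and chr8:64242001-64350000 (108 kb) it was 100% in ESC and 0% in CM, and at chr5:138915001-138996000 (81 kb) 93.8% and 0%. The last of these lay 5012 kb from the nearest CM Lamin B domain, the farthest of all 43. The 252 kb at chr5:132336001-132588000 had 51.6% in ESC and 0% in CM, and the 297 kb at chr9:82872001-83169000 had 53.5% and 43.4%. In the opposite direction, chr12:88830001-88965000 (135 kb) had no H3K9me2 domain in ESC and 96.3% in CM, and chr11:90288001-90468000 (180 kb) had 40.0% and 95.6%.

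**Figure D3:**
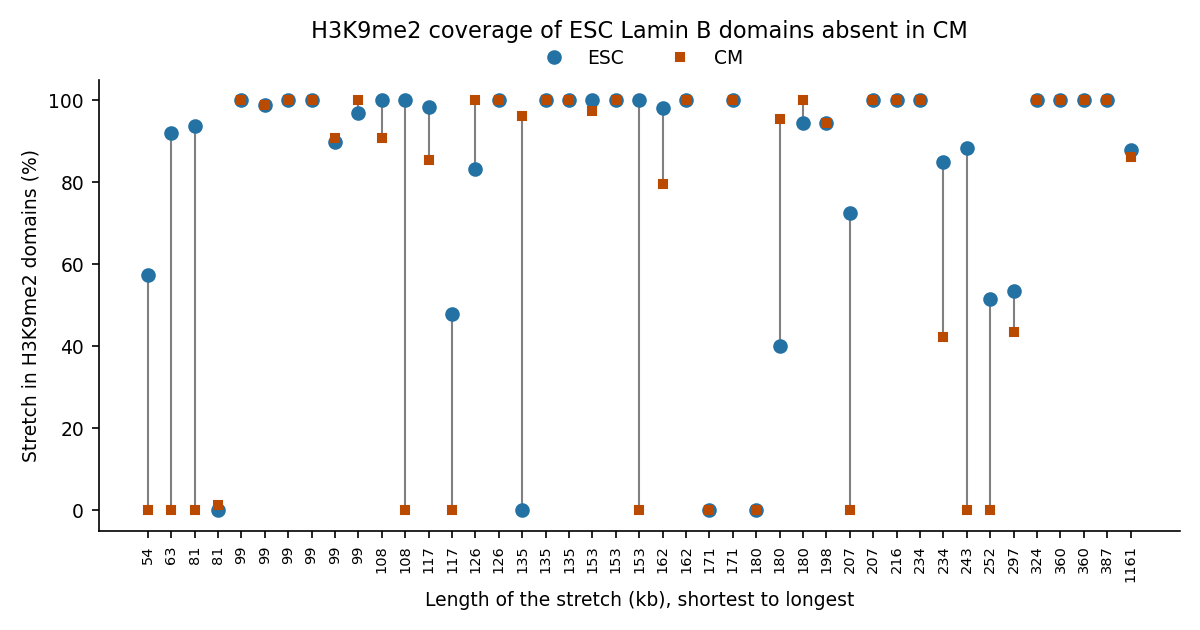
H3K9me2 coverage (y axis, percent of the stretch) in ESC (circles) and CM (squares) of the 43 released stretches apart from CM Lamin B domains, ordered by length, with each length in kb on the x axis and a line joining the values of a stretch. Both values are equal in 20 of the 43 stretches and both are 100% in 16, and 9 stretches with H3K9me2 in ESC have 0% in CM.

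The 213 stretches beside CM domains were cut-back edges of 188 ESC Lamin B domains, and H3K9me2 mostly stayed on them. Marked in both cell types were 145 (68.1%, 61.5 to 74.0), in neither 35 (16.4%, 12.1 to 22), in ESC only 19 and in CM only 14. Full coverage in both was found in 105. Coverage on the kept side, within 20 kb of the CM Lamin B edge, was 86.8% in ESC and 83.3% in CM, and in the first 20 kb on the released side 75.6% and 74.8%. In stretches long enough, 50 to 100 kb from the CM edge (87 stretches), it was 85.6% and 77.6%. At the former ESC edge, the last 20 kb of released sequence had 74.6% in ESC and 70.2% in CM, and the first 20 kb beyond had 42.6% and 52.2%. At 100 to 200 kb beyond, coverage was 22.4% and 23.4%. On this 20 kb scale the larger step in CM H3K9me2 coverage lay at the former ESC Lamin B edge and the smaller at the CM edge. In the 72 stretches under 20 kb, the first and the last 20 kb of released sequence were the same bins. The steps are therefore not separate measurements there, and the CM H3K9me2 grid is itself 20 kb.

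A CM H3K9me2 edge was nearer to the former ESC Lamin B edge than to the CM Lamin B edge in 156 of 213 stretches, and nearer to the CM edge in 56. The former edge is the outer one, so any H3K9me2 edge beyond it is nearer to it by position alone. Kept sequence on the other side was mostly covered by H3K9me2, which favours the same outcome. Such counts therefore do not show that H3K9me2 followed the former edge. The former ESC edges had a median distance of 51 kb to a CM H3K9me2 edge, against 80.5 kb over all 1416 autosomal ESC Lamin B edges. The CM edges of these stretches had 81 kb, against 59 kb over all 1652 CM Lamin B edges. Within 20 kb of a CM H3K9me2 edge were 33.8% of the former ESC edges, close to the 30.9% over all ESC edges, and 22.1% of the CM edges, against 34.9% over all CM edges. In the 89 stretches of at least 50 kb, the former ESC edge was the nearer in 65 and the CM edge in 24. In those 89, the H3K9me2 domain that covered the last kept kilobase ran more than 20 kb past the former edge in 45 in CM and in 31 in ESC. It ended within 20 kb of that edge in 17 in CM and 35 in ESC, and further back in 9 and 7. In the remaining 18 and 16 the last kept kilobase was unmarked. The CM H3K9me2 grid is coarser than the ESC grid, so shares within 20 kb are not on an equal footing.

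**Figure D4:**
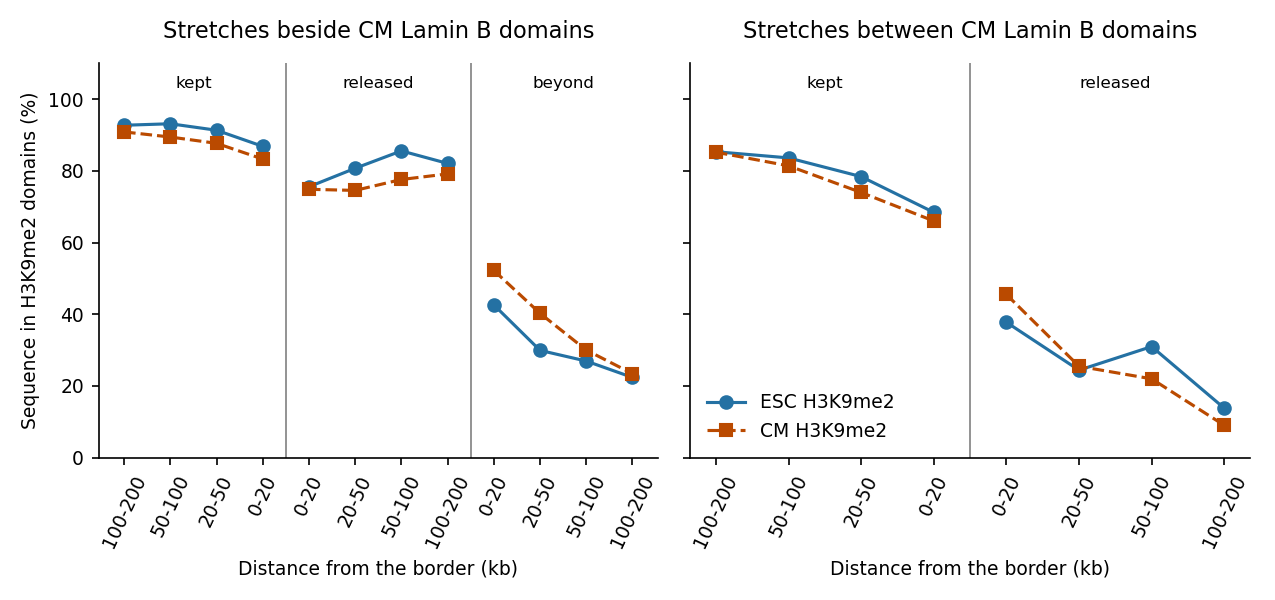
Percent of sequence in H3K9me2 domains (y axis) by distance from a border in kb (x axis), in ESC (circles) and CM (squares). Left, stretches beside CM domains, with kept and released sequence measured from the CM Lamin B edge and sequence beyond from the former ESC edge; right, stretches between CM domains, with distance from the nearest CM edge. Beside CM domains each bin of released sequence measured from the CM edge is covered to 74.5% or more in both cell types, and between them it falls to 13.8% in ESC and 9.03% in CM at 100 to 200 kb, a distance reached by 13 stretches.

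Of the longest edge stretches, chr1:187515001-187792000 (277 kb), chr8:92367001-92609000 (242 kb) and chr11:112332001-112545000 (213 kb) lay wholly in H3K9me2 domains of either cell type. The 265 kb at chr8:75294001-75559000 had 63.8% in ESC and 75.5% in CM. The 224 kb at chr6:128817001-129041000 had no H3K9me2 domain in either. H3K9me2 coverage was 100% in ESC and 0% in CM at chr6:124201001-124317000 (116 kb) and chr17:53526001-53595000 (69 kb). It was 0% in ESC and 100% in CM at chr12:89276001-89397000 (121 kb), and 0% and 70.8% at chr5:152046001-152207000 (161 kb). Among openings of at least 50 kb, the largest rises were at chr13:5797001-5885000 (88 kb), from 3.41% to 100%, and at chr11:16390001-16522000 (132 kb), from 1.52% to 62.1%. Some shorter openings rose by more than the latter, such as chr14:15169001-15191000 (22 kb), from 4.55% to 100%.

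Released sequence was unevenly spread over chromosomes. It was 10.9% of ESC Lamin B sequence on chromosome 11 (4.07 Mb in 33 stretches), 5.83% on chromosome 7, 5.06% on chromosome 18 and 0.0693% on chromosome 16, where a single stretch of 29 kb was found. The median over 19 chromosomes was 2.45%. Chromosome 11 held 3.69% of ESC Lamin B sequence and 14.1% of the released sequence. All 3 places were present there, with 1.07 Mb apart, 1.27 Mb beside and 1.73 Mb between. Of its unmarked ESC Lamin B sequence, 61.4% was released, against 0.293% to 31.1% on the other chromosomes. Without chromosome 11, 2.53% of ESC Lamin B sequence was released. The copy number of chromosomes in the libraries was not analysed here.

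**Figure D5:**
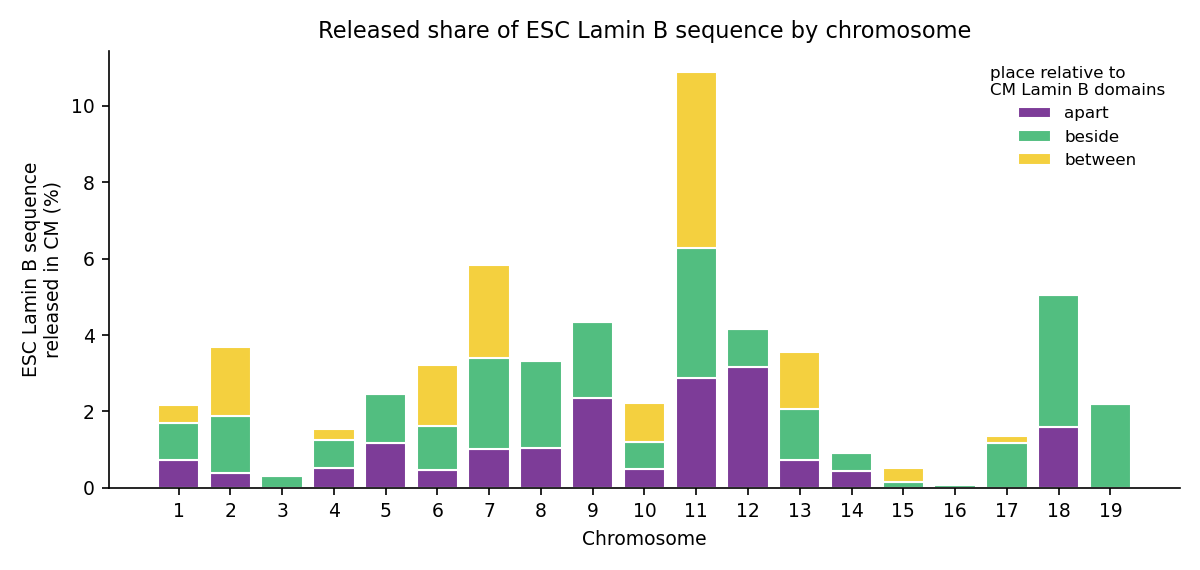
Percent of ESC Lamin B sequence released in CM (y axis) on each autosome (x axis), stacked by place relative to CM Lamin B domains. Chromosome 11 stands highest at 10.9%, and chromosomes 3, 14, 15 and 16 are each under 1%.

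Most stretches stood alone. With stretches linked across distances of up to 500 kb, 188 of 310 had no neighbour, and 17 groups of 3 or more held 56 stretches. The largest group, chr11:29169001-30888000, held 5 stretches with 557 kb of released sequence, covered by H3K9me2 to 18.5% in ESC and 3.95% in CM. At chr1:187515001-188226000 a cut-back edge and 2 lost domains followed each other within 711 kb, with coverage of 99.4% and 100%. Of 708 autosomal ESC domains, 306 had no sequence outside CM domains, and 247 held the 310 stretches. Besides the 43 lost whole, 204 were released in part, by a median of 7.23% of their length, and 14 held 3 or more stretches. The domain chr2:132804001-143505000 held the most, 7, and 9.55% of it was released. In the domain chr11:9162001-18765000, with 5 stretches and 12.6% released, nearby openings differed in H3K9me2: chr11:16643001-16863000, chosen after its values were seen, had 80.5% in ESC and 1.36% in CM, while chr11:16390001-16522000 had the higher coverage in CM.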

How the data were processed

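ChIP-seq of Lamin B and H3K9me2 was represented by 4 deposited lists of enriched domains, each with start, end and a score per domain on a scale that no source used here explains. Per the submitters' processing notes, the build was mm9 and the tools were STAR, Picard and deepTools. Per the file headers, the lists were made with the settings g 10, an automatic bin and 5% as false discovery rate. The domain caller and the way libraries were combined are not given in the sources used here. Domains were ranked within a list by the deposited score. Lists held no counts, so depth is unknown and no interval for depth can be given.

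Domains were placed on a 1 kb grid of chromosomes 1 to 19 in Python 3.11.15 (numpy 2.4.6, pandas 2.3.3). Coverage is the percent of a stretch's 1 kb bins in H3K9me2 domains. Wilson 95% intervals came from statsmodels 0.14.6, and figures from matplotlib 3.10.9. On simulated lists, 100% of 433 planted stretches were recovered with their place and coverage. Regions named are the 5 longest of each place, the 5 largest falls and 5 largest rises of H3K9me2 coverage among stretches of at least 50 kb, and the 3 longest of each H3K9me2 state, apart from those cited as neighbours or groups. The stretches and measures were chosen with earlier results of these data known. No annotation or genome sequence of mm9 was used, so genes and sequences of the stretches are not given. Chromosomes X and Y, and inputs, were not analysed here.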

Additional observations from a re-analysis of the deposited data

How the results depend on the processing

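The omission of chromosome 11 or of the distal chromosome 12 stretch, and the limit to edge stretches of 50 kb or more for H3K9me2 edges, were chosen after seeing the data; the other alternatives were planned. Between CM domains, H3K9me2 coverage was below that beside them in all 10 alternatives of coverage, in ESC (19.7% to 29.3% against 78.7% to 83.3%) and in CM (17.6% to 24.0% against 72.5% to 79.5%). Released sequence as a whole had a lower coverage in CM than in ESC in the same 10. Not all of these alternatives could change the order of between and beside. The omitted chromosome 12 stretch was apart, so both kinds kept their values. With ESC H3K9me2 placed on a 20 kb grid, the CM values stayed the same by construction. Of 165 recomputed values, 140 stayed within their interval or within 1.5 times, and 25 moved. Some of the 140 could not move. The shortest stretch apart was 54 kb, so minimums of 20 and 50 kb left the coverage of stretches apart unchanged. For coverage the interval was a Wilson interval with the number of stretches as its count, which is wide for 43 or 54 stretches. The tally is therefore not a measure of robustness.

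Most of the values that moved were shares of places. The share apart rose with the length limit and nearly vanished with the score limit. With a minimum of 20, 50 and 100 kb, stretches apart came to 18.8%, 26.4% and 34.0% and those beside to 61.6%, 54.6% and 45.4%. The number was 163 at 50 kb, where 3.68% were marked in CM only, and 97 at 100 kb. With CM domains widened by 11 kb, 19.6% were apart and 61.6% beside. With CM domains merged across gaps under 50 kb, 74.1% were beside and 10.8% between. With ESC Lamin B domains at or above the median score, 187 stretches with 16.4 Mb were left, of which 0.535% were apart, 73.8% beside and 25.7% between. Coverage was then 55.1% in ESC and 51.0% in CM, and 86.1% in CM for the single stretch left apart. With marking at 10% coverage, 14.5% were marked in neither; at 90% these were 31.9%, with 49.0% in both and 10.3% in CM only. No paired analysis was possible because the lists hold no value per library, and for the same reason no replicate was left out. Depth is unknown for all lists.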
